A study of Panax ginseng with 12 samples.

Results

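Embryogenic calli of Panax ginseng kept at 5 °C for 4 days (cold) were compared with calli kept at 20 °C for 4 days (control). This day 4 comparison holds 4 of the 12 libraries of the series, 2 at each temperature, and the labels name no genotype, cell line or culture for them. Total RNA was sequenced, and the values are TPM, a length-corrected share of all transcripts, for assembled genes. Such calli are unorganised tissue grown in culture from which somatic embryos can arise. The study also sampled both temperatures at days 2 and 6, and those libraries enter here for the spread between libraries and for comparison. Of 44953 genes in the table, 44600 had at least 1 TPM in at least 2 libraries and were tested, and 27619 of them were kept because both cold values lay on the same side of both control values. Nothing in the labels says that replicates came from separate cultures, so p-values measure the spread between these libraries, which may be technical.

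In plants, cold is sensed within minutes through the membrane and a calcium influx. Transcription factors of the CAMTA, CBF/DREB and ZAT families then regulate protective genes. Dehydrins and late embryogenesis abundant proteins shield membranes and enzymes when water is withdrawn, and soluble sugars act as protectants and as carbon stores. Cell division and wall growth slow down in the cold in many plants, and the circadian clock both shapes the cold response and is altered by it. Ginseng is known for its ginsenosides, triterpene saponins made from squalene.

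Libraries of day 4 were more alike within than between temperatures. Across genes, Pearson's r of log2(TPM + 1) was 0.925 between the cold libraries, 0.88 between the control libraries and 0.722 to 0.795 between cold and control. Median TPM was 6.65 and 7.08 in cold, against 7.57 and 7.71 in control, and the 50 most abundant genes held 11.5% and 10.1% of TPM in cold, against 7.96% and 9.32% in control. The depth behind a value is unknown, since TPM does not carry read numbers. Of the embryogenic callus regulators, 12 genes were found, and WOX8, a WUSCHEL-related homeobox gene, was the most abundant, at 247 and 195 TPM in cold and 657 and 342 TPM in control. Somatic embryogenesis receptor kinases SERK1 and SERK2 were also present. SERK1 (TRINITY_DN26952_c0_g1) was at 90.1 and 95.2 TPM in cold and 126 and 121 TPM in control. SERK2 (TRINITY_DN21212_c0_g4) was at 102 and 90.6 TPM in cold and 65.1 and 64.1 TPM in control. LEC1, FUSCA3 and WUSCHEL itself had no gene named for them. A LEC2-like gene was at 4.92 and 4.56 TPM in cold and 0.77 and 0.17 TPM in control. BBM2, of the BABY BOOM family, was at 2.23 and 1.63 TPM in cold and 2.68 and 6.51 TPM in control. None of the 12 genes was called, and their summed level was 515 and 447 TPM in cold and 903 and 594 TPM in control. WOX8 was the largest part of these sums. Both cold values lay above both controls in 5 of the 12 genes and below them in 4. Over all genes these shares are 25.9% and 36%. The median difference of the 12 genes was 0.007 (0.16 relative to all genes). Markers of other cell types were few in number and summed to 315 and 347 TPM in cold and 309 and 294 TPM in control for xylem, 434 and 488 TPM in cold and 490 and 541 TPM in control for epidermis, and 263 and 245 TPM in cold and 340 and 276 TPM in control for photosynthesis. Of these, 0 of 24 xylem genes rose and 3 fell (1, 1 and 0 under same-median, median ratio and quantile scaling), 0 of 23 epidermis genes were called (1, 1 and 2 rose under these scalings), and 2 of 42 photosynthesis genes rose (4.76%) and 1 fell (2.38%). Over all genes 4.07% were called higher and 4.3% lower. The marker lists match words in names, and whether each gene marks its cell type in ginseng was not tested. In bulk samples, fewer cells of a type and less RNA per cell cannot be told apart, and the part of cell types in the results was not tested.

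At day 4, 3736 of 44600 genes differed between cold and control at a false discovery rate of 0.05 (limma on log2(TPM + 1), Benjamini-Hochberg), which is 8.38% of the genes tested. Of these, 1816 (4.07%) were higher and 1920 (4.3%) were lower in cold, and the median called difference was 2.08 among the higher and -1.88 among the lower genes on the log2 scale. At least 8-fold differences were found in 286 of the higher and 139 of the lower genes. All 3736 called genes were among those kept by side, of which 13.5% were called. Both cold values lay above both control values in 11572 genes (25.9%) and below them in 16047 genes (36%), so 61.9% of all genes did not overlap between the temperatures. The median difference over all genes was -0.16, where days 2 and 6 had 0.003 and -0.03, and differences are therefore also given relative to it. The balance of calls turned on this shift. With the same median set in each library, 2482 genes were higher and 1457 lower in cold (63% higher, against 48.6% as deposited). Median ratio scaling gave 2441 and 1541 and quantile normalization gave 2200 and 1497.

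Fitting the 4 day 4 libraries alone called 535 higher and 319 lower genes. The lowest adjusted p of that fit was 0.0489 (limma, Benjamini-Hochberg), so all of these calls lay just under the threshold of 0.05. Without 1 of the 4 day 4 libraries, calls numbered 46 (without cold replicate 1), 12 (without cold replicate 2), 84 (without control replicate 1) and 115 (without control replicate 2), with the lone library left in a group assumed to vary like the other groups. All 3736 differences kept their sign in these 4 fits, which their separation by side builds in. Of the 146 called genes among those chosen by the naming rule, 133 were called in none of the 4 fits. In all, 11 genes were called in each of them. They include CML28, a calmodulin-like calcium sensor, the protein phosphatase 2C gene At3g17090, both described later, and DUT, whose enzyme removes dUTP before it is built into DNA. DUT stood at 4.76 and 5.03 TPM in cold and 94.8 and 55.9 TPM in control, a log2 difference of -3.65 (SE 0.34 by limma, adjusted p = 0.0014 after Benjamini-Hochberg). An endosulphine gene (TRINITY_DN19518_c0_g1), of a family of phosphatase inhibitors known from yeast and animals, was at 78.5 and 54.2 TPM in cold and 2.68 and 2.9 TPM in control (log2 difference 4.13, SE 0.39 by limma, adjusted p = 0.0014 after Benjamini-Hochberg). A gene similar to a cell wall integrity and stress response component (TRINITY_DN28955_c0_g2) was at 1.43 and 0.94 TPM in cold and 21.4 and 26.3 TPM in control (log2 difference -3.51, SE 0.31 by limma, adjusted p = 0.0012 after Benjamini-Hochberg). DUT, the endosulphine gene and the wall integrity gene were named after their values were seen, and the other genes of the 11 have no protein name.

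Among genes with a protein name and a mean of at least 5 TPM in the higher group, the largest rise belonged to a gene similar to the putative methyltransferase DDB_G0268948 of Dictyostelium, whose function in plants is not given by the table. It stood at 299.7 and 256 TPM in cold and 1.35 and 2.46 TPM in control, a log2 difference of 6.61 (SE 1.3 by limma, adjusted p = 0.017 after Benjamini-Hochberg). UGT85A8, an enzyme that transfers sugars to small molecules, had 489 and 591 TPM in cold and 27.9 and 6.17 TPM in control (log2 difference 5.23, SE 1.19 by limma, adjusted p = 0.027 after Benjamini-Hochberg). CHX18, a cation/proton antiporter, had 37.1 and 52.4 TPM in cold and 0.27 and 0.33 TPM in control (log2 difference 5.12, SE 0.74 by limma, adjusted p = 0.0074 after Benjamini-Hochberg). In each of these genes the lowest cold value was far above the highest control value, and the rule that chose them required values without overlap. The other large rises were a phosphoglycerate mutase-like gene (PGM, 4.78), the fatty acid conjugase FAC2A (4.76), the pectinesterase PECS-2.1 (4.72), the plastid desaturase FAD4 (4.51), WRKY40 (4.48), the amino acid transporter-like gene At1g48640 (4.36) and the LURP-one-related gene At5g01750 (4.32), all as log2 differences. Over all genes that share the best hit, the log2 difference was 3.04 for PECS-2.1, 0.72 for FAD4, 2.32 for WRKY40 and 0.53 for At5g01750, none of them called. Without 1 day 4 library, the difference lay between 4.22 and 6.23 for UGT85A8 and between 4.04 and 5.48 for FAC2A.

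MARD1, a zinc finger protein linked to abscisic acid and senescence in Arabidopsis, showed the largest fall among such genes. It had 1.64 and 0.97 TPM in cold and 87.6 and 118 TPM in control, a log2 difference of -5.49 (SE 0.9 by limma, adjusted p = 0.010 after Benjamini-Hochberg). FLA9, a fasciclin-like arabinogalactan protein of the cell surface, had 3.17 and 2.7 TPM in cold and 66.6 and 121 TPM in control (log2 difference -4.53, SE 1.23 by limma, adjusted p = 0.046 after Benjamini-Hochberg). CLASP, which attaches to microtubules and steadies them, had 12.7 and 15.4 TPM in cold and 233 and 361 TPM in control (log2 difference -4.28, SE 0.92 by limma, adjusted p = 0.022 after Benjamini-Hochberg). In these genes too the groups were far apart, and the rule that chose them required values without overlap. A gene similar to a fatty acid elongation protein of Dictyostelium (TRINITY_DN18045_c1_g10) is listed at 0 in both cold libraries, with 15.8 and 10.3 TPM in control. The other large falls were the signal peptidase subunit At5g27430 (-4.31), a gene with a carbohydrate binding domain CBM49 (-4.00), the transcription factor BHLH96 (-3.94), the metal transporter YSL3 (-3.93), the endoplasmic reticulum chaperone HSP90-7 (-3.92) and guaA, named for GMP synthesis (-3.79). With all genes of the same hit summed, MARD1 stood at -0.63, YSL3 at -0.94, At5g27430 at -1.20 and BHLH96 at -1.94, none of them called. Without 1 day 4 library, the difference lay between -5.07 and -3.55 for At5g27430 and between -4.92 and -2.93 for YSL3.

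**Figure D1:**
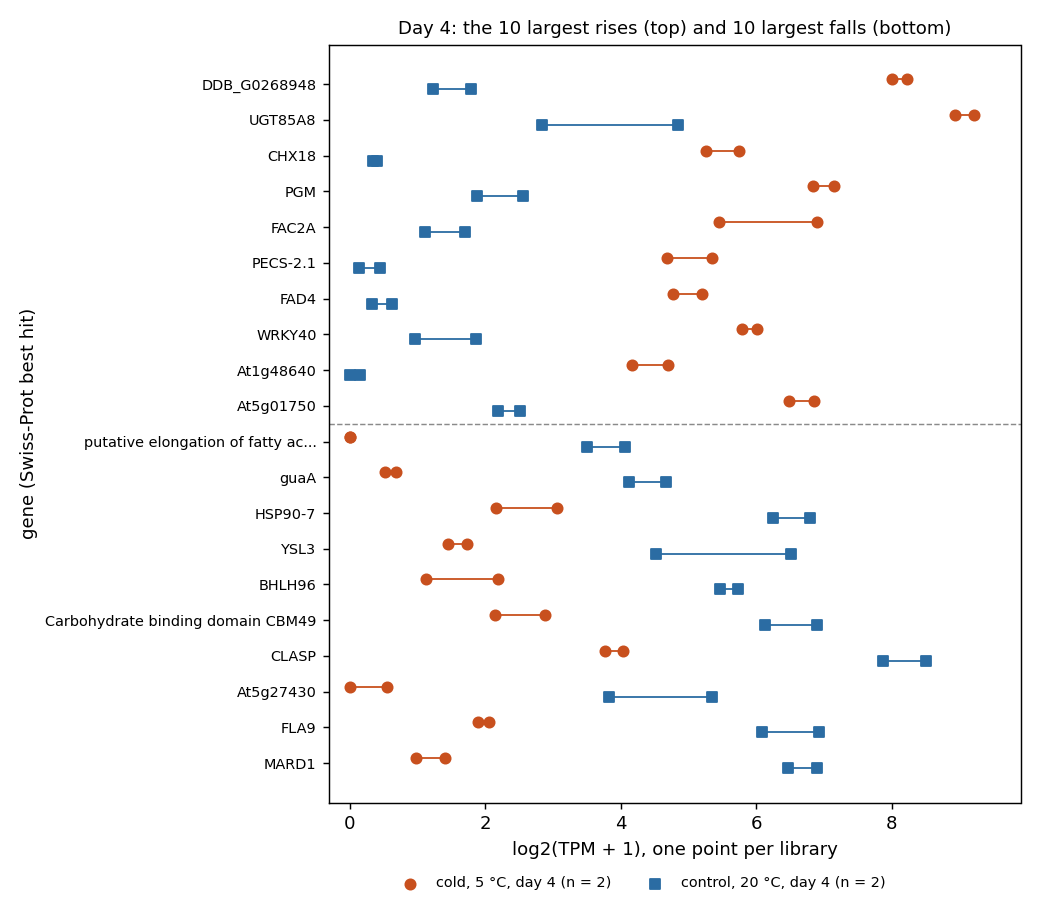
Level of the 10 genes with the largest rise and the 10 with the largest fall at day 4, as log2(TPM + 1), with 1 point for each library (circles, cold, and squares, control; 2 libraries each, joined by a line). Cold and control points do not overlap in any of the 20 genes, by the rule that chose them.

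Dehydrins and late embryogenesis abundant (LEA) proteins had the highest median of the 34 gene lists, 1.61 (1.77 relative to all genes). Of 13 tested members 5 rose, or 3 under quantile normalization, none fell, and the other 8 were not called. Over all genes 4.07% were called higher and 4.3% lower. Both cold values lay above both controls in 7 of the 13 and below them in 3, where the shares over all genes are 25.9% and 36%. Among these 3 was a HIRD11-like dehydrin (TRINITY_DN36381_c0_g1), at 10.55 and 3.16 TPM in cold and 10.75 and 22.06 TPM in control. Another was a dehydrin (TRINITY_DN1868_c0_g1) at 12.69 and 5.54 TPM in cold and 14.99 and 20.49 TPM in control. A putative dehydrin (TRINITY_DN23807_c0_g1) reached 4007 and 4192 TPM in cold, against 900.3 and 537 TPM in control, and rose by 2.56 on the log2 scale (SE 0.63 by limma, adjusted p = 0.035 after Benjamini-Hochberg). ERD14, a dehydrin that binds membranes and calcium, had 1373 and 1413 TPM in cold and 294 and 218 TPM in control (log2 difference 2.46, SE 0.67 by limma, adjusted p = 0.047 after Benjamini-Hochberg). Dehydrin 1 (TRINITY_DN17283_c2_g1) had 39.7 and 65.8 TPM in cold and 3.7 and 1.22 TPM in control (log2 difference 4.01, SE 0.81 by limma, adjusted p = 0.019 after Benjamini-Hochberg). The cold values of these genes lay well above all control values, and no called gene had overlapping values. LEA5 rose by 2.55 and an LEA protein similar to At1g64065 (TRINITY_DN17147_c0_g1) by 2.33. Members did not all move: COR413PM2 (TRINITY_DN26404_c0_g1), a cold-regulated membrane protein of Arabidopsis, was at 84.9 and 108 TPM in cold and 106 and 128 TPM in control and was not called, and dehydrin 2 (TRINITY_DN20868_c3_g1) was at 521 and 679 TPM in cold and 193 and 194 TPM in control and missed the threshold (adjusted p = 0.083 by limma after Benjamini-Hochberg).

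Transcription factors of the cold response were called in 1 direction. Of 57 tested members 10 rose and none fell, with a median difference of 0.40 (0.56 relative to all genes). ZAT10, a zinc finger repressor of stress responses, had 275 and 199 TPM in cold and 22.3 and 16.5 TPM in control (TRINITY_DN19422_c0_g4, log2 difference 3.54, SE 0.47 by limma, adjusted p = 0.0064 after Benjamini-Hochberg). ZAT6, of the same family, had 244 and 268 TPM in cold and 15.2 and 38.9 TPM in control (log2 difference 3.34, SE 0.62 by limma, adjusted p = 0.014 after Benjamini-Hochberg). The difference of ZAT6 lay between 2.68 and 3.99 without 1 day 4 library. Of the 14 genes named ZAT or AZF, 5 rose, and of 34 calmodulin-binding transcription activators 4 rose, all with the best Swiss-Prot hit CMTA4 (log2 differences 1.30 to 2.67). Only 5 genes were named for DREB or CBF factors, which drive cold genes through the dehydration-responsive element, and 1 of them, DREB2C, rose (2.74). These subgroups were split off after the values had been seen.

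Other large families of transcription factors also had more rises than falls. WRKY factors, which bind the W box and act in defence and stress, had 15 of 79 members higher and none lower (median 0.74, or 0.89 relative to all genes). WRKY40 stood at 54.5 and 63.5 TPM in cold and 0.96 and 2.65 TPM in control (log2 difference 4.48, SE 0.6 by limma, adjusted p = 0.0065 after Benjamini-Hochberg), and WRKY69 rose by 3.32. Over the genes of their hits these were 2.32 for WRKY40 and 1.42 for WRKY69, neither of them called. The most abundant member, WRKY6, was at 427 and 309 TPM in cold and 192 and 159 TPM in control and missed the threshold (adjusted p = 0.063 by limma after Benjamini-Hochberg). NAC factors had 10 of 55 members higher and 1 lower (median 0.80, or 0.96 relative to all genes). NAC072, an abscisic acid and drought responsive factor in Arabidopsis, was the most abundant of them, at 633 and 719 TPM in cold and 33.1 and 34.4 TPM in control (TRINITY_DN18161_c0_g3, log2 difference 4.28, SE 0.56 by limma, adjusted p = 0.0060 after Benjamini-Hochberg). NAC100 rose by 2.79 and NAC021, named for auxin-dependent root branching, fell by 1.26. The fall was not called over both genes of its hit (-0.53), and no NAC gene was called lower under median ratio or quantile scaling.

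MYB factors had 15 of 58 members higher and 2 lower, with a median of only 0.15 (0.30 relative to all genes) and changes in both directions. A gene similar to myb-related protein 308 (TRINITY_DN13718_c0_g3) was at 104 and 177 TPM in cold and 6.19 and 7.42 TPM in control (log2 difference 4.13, SE 0.69 by limma, adjusted p = 0.011 after Benjamini-Hochberg). PP2, next to it in the assembly's numbering, rose by 3.69, and MYB4, the most abundant member, rose by 2.14. Both genes that fell have the best hit MYB44 (-2.10 and -2.02), and with the 8 genes of that hit summed the difference turned to 0.18.

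Calcium signalling genes, which act early in the cold response, were called in both directions, 6.43% of them higher and 2.92% lower. Over all genes these shares are 4.07% and 4.3%. Of 171 tested members 11 rose and 5 fell (median 0.20, or 0.35 relative to all genes), against 20, 22 and 16 higher and 0, 2 and 4 lower under the same-median, median ratio and quantile scalings. CML28 had 110 and 166 TPM in cold and 8.37 and 8.04 TPM in control (log2 difference 3.88, SE 0.33 by limma, adjusted p = 0.0012 after Benjamini-Hochberg). ACA13, a plasma membrane pump that moves calcium out of the cell, had 144 and 157 TPM in cold and 9.87 and 17.1 TPM in control (TRINITY_DN32728_c0_g6, log2 difference 3.43, SE 0.45 by limma, adjusted p = 0.0060 after Benjamini-Hochberg). Of 33 plasma membrane calcium pump genes 7 rose and none fell, a subgroup split off after the values had been seen. Calmodulin itself (CAM-1, 268 and 244 TPM in cold, 253 and 239 TPM in control) was not called, and the calcium sensor CML11 and the calcium-dependent kinase CPK13 (TRINITY_DN23964_c0_g2) fell, by 1.85 and 1.75.

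Abscisic acid signalling genes and protein phosphatases 2C, which hold back that hormone's kinases or act in other kinase pathways, had 16 of 151 members higher and 4 lower (median 0.25, or 0.41 relative to all genes). The phosphatase At3g17090 was the most abundant of the list, at 285 and 228 TPM in cold and 21.5 and 19.2 TPM in control (TRINITY_DN20295_c1_g1, log2 difference 3.59, SE 0.31 by limma, adjusted p = 0.0012 after Benjamini-Hochberg). PP2CA, a negative regulator of abscisic acid signalling in Arabidopsis, had 36.6 and 40.5 TPM in cold and 2.4 and 1.34 TPM in control (log2 difference 3.81, SE 0.57 by limma, adjusted p = 0.0085 after Benjamini-Hochberg). Phosphatase genes also fell, At1g09160 by 1.93 and a gene for a probable phosphatase 2C 50 by 2.29.

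**Figure D2:**
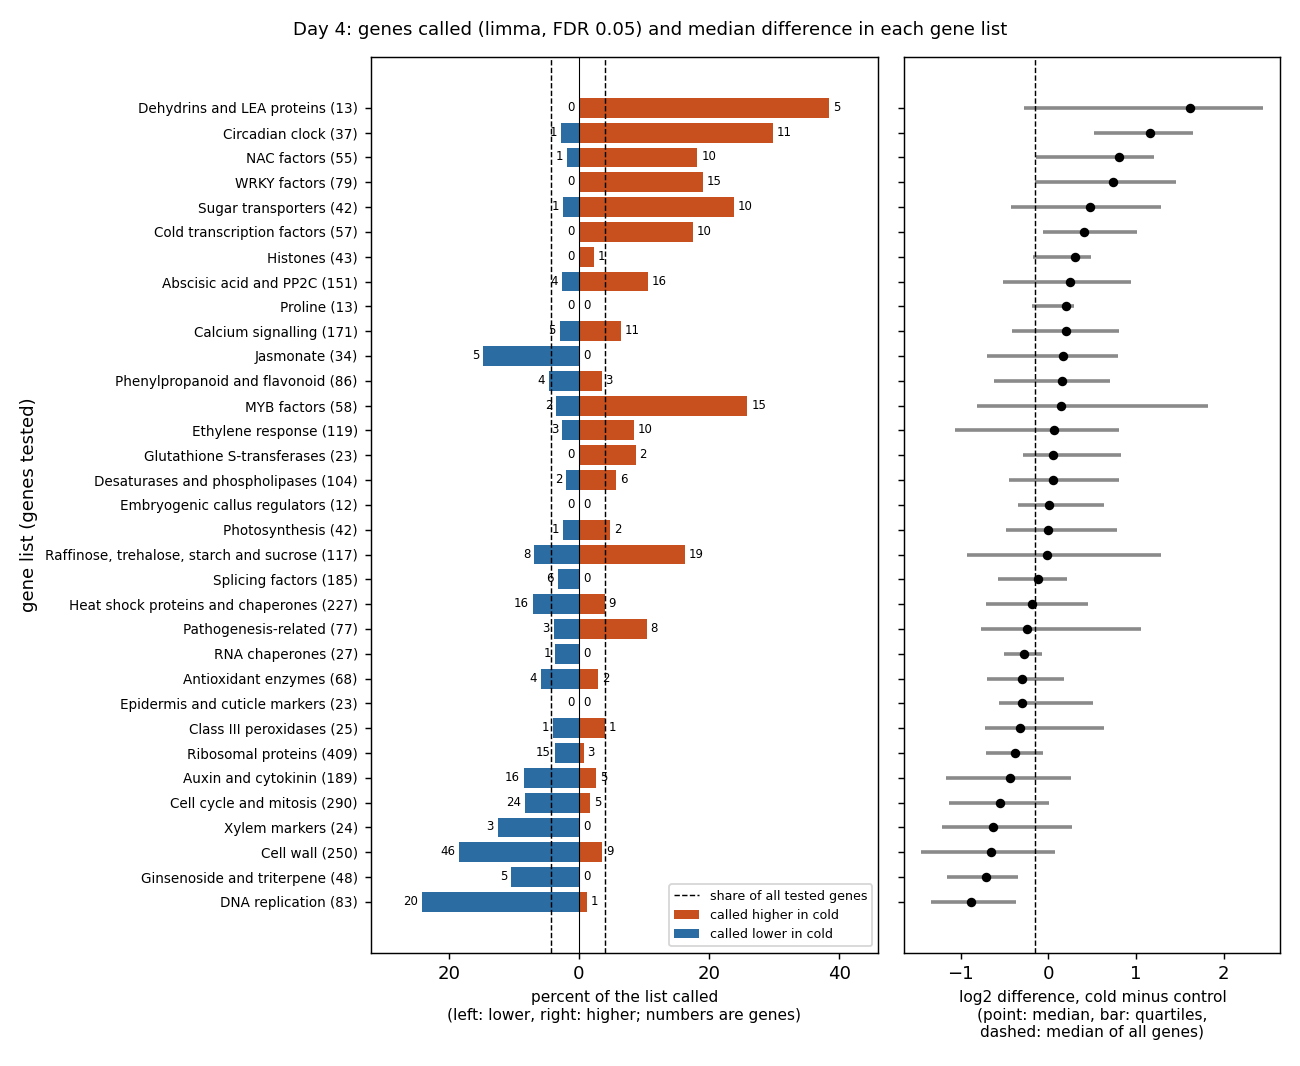
Gene lists at day 4, sorted by median, for the 33 lists with at least 5 tested genes. Left, percent of each list called higher (orange) or lower (blue) in cold, with the number of genes beside each bar and dashed lines at the shares of all tested genes, 4.07% and 4.3%. Right, median and quartiles of the log2 difference, with a dashed line at the median of all genes, -0.16. Dehydrins, the clock and NAC factors lie at the top, DNA replication and the list of ginsenoside and triterpene genes at the bottom.

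Clock genes rose, with 1 exception among those called. Of 37 tested members 11 rose and 1 fell, with a median of 1.16 (1.31 relative to all genes), and 16, 17 and 16 rose under the 3 scalings. Both cold values were above both controls in 29 of them, where the share over all genes is 25.9%. APRR3, a pseudo-response regulator of the clock, had 81.5 and 68.6 TPM in cold and 7.88 and 11.1 TPM in control (log2 difference 2.87, SE 0.48 by limma, adjusted p = 0.012 after Benjamini-Hochberg). An LNK1 gene (TRINITY_DN17352_c0_g1), a coactivator of clock genes, had 15.9 and 24 TPM in cold and 1.54 and 0.99 TPM in control (log2 difference 3.19, SE 0.58 by limma, adjusted p = 0.014 after Benjamini-Hochberg). The morning factor CCA1 (TRINITY_DN21385_c1_g1) rose by 2.52, the blue light receptor ADO3 by 2.71, RVE8 (TRINITY_DN33329_c0_g3) by 2.01 and APRR5 by 1.81. One APRR7 gene (TRINITY_DN34323_c2_g2) went the other way, at 5.25 and 4.32 TPM in cold and 24.1 and 18.1 TPM in control (log2 difference -1.92, SE 0.43 by limma, adjusted p = 0.026 after Benjamini-Hochberg). Another gene similar to APRR7 (TRINITY_DN34756_c1_g3) rose by 1.36. GIGANTEA (GI), the most abundant member, was not called, at 39 and 49.4 TPM in cold and 29.5 and 52.3 TPM in control. The labels used here give no hour of sampling, so time of day was not tested.

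Of the 119 KEGG pathways with at least 20 tested genes, circadian rhythm had the highest median (0.31, or 0.47 relative to all genes), with 23 of 153 genes higher and 3 lower. Besides the clock genes it holds COP1, a ubiquitin ligase of light signalling, of whose 8 genes 4 rose. The COP1 gene TRINITY_DN20131_c0_g1 had 13.2 and 38.1 TPM in cold and 1.27 and 0.37 TPM in control (log2 difference 3.74, SE 0.53 by limma, adjusted p = 0.0073 after Benjamini-Hochberg). Without 1 day 4 library this difference lay between 3.01 and 4.47. Morning factors LHY (TRINITY_DN33947_c0_g1, 2.65, and TRINITY_DN33947_c0_g2, 2.19) rose with CCA1, and none of the 5 genes named LHY or CCA1 had a negative difference. Over all genes 56.3% of differences were negative.

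Sugar genes moved in both directions. In the list of raffinose, trehalose, starch and sucrose metabolism 19 of 117 members rose and 8 fell, and the median was -0.02 (0.14 relative to all genes), which turned positive under each of the 3 scalings (0.10 to 0.15). Invertases, sucrose synthases and trehalose-phosphate synthases made up most of the genes that rose. The vacuolar acid invertase INV*DC4, which splits sucrose, had 193 and 111.5 TPM in cold and 33.2 and 7.25 TPM in control (TRINITY_DN32151_c0_g5, log2 difference 3.14, SE 0.75 by limma, adjusted p = 0.031 after Benjamini-Hochberg). Without 1 day 4 library this difference lay between 2.11 and 4.16, and over the 8 genes of the hit it was 1.68 and not called. TPS11, a trehalose-phosphate synthase-like protein, had 262 and 352 TPM in cold and 40.6 and 65.8 TPM in control (TRINITY_DN32346_c0_g1, log2 difference 2.53, SE 0.36 by limma, adjusted p = 0.0074 after Benjamini-Hochberg). BAM9, an inactive beta-amylase relative and the most abundant gene of the list, had 556 and 731 TPM in cold and 129 and 112 TPM in control (log2 difference 2.40, SE 0.66 by limma, adjusted p = 0.047 after Benjamini-Hochberg).

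Starch synthases and sucrose-phosphate synthases made up most of the genes that fell. A granule-bound starch synthase 2 gene (TRINITY_DN33037_c0_g4) had 2.4 and 2.61 TPM in cold and 21.2 and 26.5 TPM in control (log2 difference -2.82, SE 0.3 by limma, adjusted p = 0.0032 after Benjamini-Hochberg). RFS2, named for raffinose synthesis, had 4.14 and 5.17 TPM in cold and 26.8 and 80 TPM in control (log2 difference -3.07, SE 0.59 by limma, adjusted p = 0.016 after Benjamini-Hochberg). The difference of RFS2 lay between -3.85 and -2.30 when 1 day 4 library was left out. RFS2 was the only gene called among 5 raffinose and stachyose synthases, of which 3 had differences above 0 and 2 below it (median 1.74). The 1 galactinol synthase gene had a difference of 2.06 and was not called. These subgroups too were split off after the values had been seen. Split by enzyme after the values had been seen, 5 of 12 neutral and alkaline invertases, 3 of 13 acid invertases, 3 of 14 sucrose synthases and 5 of 14 trehalose-phosphate synthases rose and none of these fell. None of 12 starch synthases or 5 sucrose-phosphate synthases rose, while 4 and 2 of them fell, and all of their differences were below 0. Over all genes 56.3% of differences were below 0. Sugar transporters had 10 of 42 members higher and 1 lower (median 0.48, or 0.63 relative to all genes). The hexose importer STP13 led by abundance, at 353 and 454 TPM in cold and 50.6 and 48.2 TPM in control (log2 difference 2.99, SE 0.54 by limma, adjusted p = 0.013 after Benjamini-Hochberg). An ERD6-like gene, At2g48020 (TRINITY_DN28518_c0_g1), rose by 3.51 and SWEET2A by 3.22, while the ERD6-like gene At1g54730 fell by 1.89, a difference of 0.0551 over both genes of its hit.

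Of 104 desaturase and phospholipase genes 6 rose and 2 fell (median 0.05, or 0.21 relative to all genes), a share of calls near that of all genes, 8.38%. FAD4, which acts on plastid phosphatidylglycerol in Arabidopsis, had 26.3 and 36 TPM in cold and 0.54 and 0.26 TPM in control (log2 difference 4.51, SE 0.67 by limma, adjusted p = 0.0085 after Benjamini-Hochberg). Over both genes of its hit FAD4 was not called (0.72). The most abundant FAD2 gene (TRINITY_DN25661_c1_g1), for the enzyme that makes linoleic acid, was at 963 and 813 TPM in cold and 618 and 926 TPM in control and was not called. The phospholipase genes NPC3 and PLC2 fell, by 2.14 and 1.12, and PLC2 was not called over both genes of its hit (-0.92).

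DNA replication had the lowest median of the lists, -0.88 (-0.72 relative to all genes). Of 83 tested members 20 fell, 1 rose and 62 were not called, and 16, 17 and 20 fell under the same-median, median ratio and quantile scalings. MCM proteins, which form the helicase that opens DNA for copying, made up 11 of the genes that fell, and the differences of all 18 MCM genes were below 0 as deposited and under each of the 3 scalings. Over all genes 56.3% of differences were below 0 as deposited. MCM3 had 9.09 and 7.39 TPM in cold and 25 and 61.5 TPM in control (log2 difference -2.13, SE 0.47 by limma, adjusted p = 0.025 after Benjamini-Hochberg). Leaving out 1 day 4 library gave MCM3 differences between -2.76 and -1.499. ROA2, its second homologue, had 12.4 and 11.7 TPM in cold and 40.7 and 61 TPM in control (log2 difference -1.97, SE 0.36 by limma, adjusted p = 0.014 after Benjamini-Hochberg). All MCM3 values in cold lay below both controls, as the rule for naming genes required. Genes for DNA polymerase alpha, the origin recognition subunit ORC4, replication protein A and replication factor C (RFC3, -1.31) fell as well. The exception was a gene for SLD5, a subunit of the GINS complex that travels with the helicase (TRINITY_DN17658_c0_g2), at 38.4 and 62.4 TPM in cold and 7.78 and 6.46 TPM in control (log2 difference 2.63, SE 0.41 by limma, adjusted p = 0.0087 after Benjamini-Hochberg).

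In the list of cell cycle and mitosis 24 of 290 members fell and 5 rose (median -0.55, or -0.39 relative to all genes), against 15, 15 and 17 that fell and 10, 10 and 7 that rose under the 3 scalings. CYCA1-1, a mitotic cyclin, had 5.12 and 4.24 TPM in cold and 29.1 and 23.5 TPM in control (log2 difference -2.26, SE 0.5 by limma, adjusted p = 0.025 after Benjamini-Hochberg), against -0.58, not called, over the 5 genes of its hit. CYCB1-2, the most abundant gene of the list, was at 314 and 278 TPM in cold and 206 and 203 TPM in control and was not called (adjusted p = 0.28 by limma after Benjamini-Hochberg). KIN7B, an inactive kinesin-like gene, is listed at 0 in both cold libraries, with 8.85 and 3.54 TPM in control. A cyclin D1-like gene (TRINITY_DN21925_c0_g4) rose by 2.38. Histones, whose synthesis accompanies DNA copying, had 1 of 43 members higher and none lower (median 0.30, or 0.46 relative to all genes), and HIS2B was at 654 and 660 TPM in cold and 664 and 427 TPM in control.

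Cell wall genes gave the most falls of any list by number, while DNA replication had a larger share of falls (24.1%, against 18.4%). Of 250 tested members 46 fell and 9 rose (3.6%), with a median of -0.66 (-0.50 relative to all genes). Over all genes 4.3% were called lower and 4.07% higher. Under the 3 scalings 30, 33 and 29 fell. A probable pectate lyase 8 gene (TRINITY_DN16748_c0_g1), which loosens pectin, had 5.27 and 4.23 TPM in cold and 45.1 and 74.8 TPM in control (log2 difference -3.37, SE 0.89 by limma, adjusted p = 0.042 after Benjamini-Hochberg). XXT1, which adds xylose side chains to xyloglucan, had 1.54 and 1.81 TPM in cold and 18.5 and 22.3 TPM in control (log2 difference -2.996, SE 0.54 by limma, adjusted p = 0.013 after Benjamini-Hochberg). Split by enzyme after the values had been seen, 8 of 24 cellulose synthase subunits, 6 of 16 pectate lyases, 5 of 14 fasciclin-like arabinogalactan proteins, 4 of 21 xyloglucan endotransglucosylases and 3 of 22 expansins fell, and none rose. The arabinogalactan peptide AGP13, the most abundant gene of the list, was at 289 and 274 TPM in cold and 528 and 545 TPM in control and was not called (adjusted p = 0.20 by limma after Benjamini-Hochberg). PECS-2.1, a pectin-modifying pectinesterase, rose, with 24.6 and 39.7 TPM in cold and 0.37 and 0.1 TPM in control, and so did an endoglucanase gene (TRINITY_DN25687_c6_g2, 3.54, or between 2.77 and 4.32 without 1 day 4 library). Over the 3 genes of its hit PECS-2.1 was not called (3.04). The 3 genes of the xylem list that fell were LAC12, a laccase (-1.52), and a pair of cellulose synthase genes (-1.46 and -1.30). The best hit of that pair is a rice subunit named CESA8. All 3 entered the list by name, and whether they mark xylem was not tested.

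**Figure D3:**
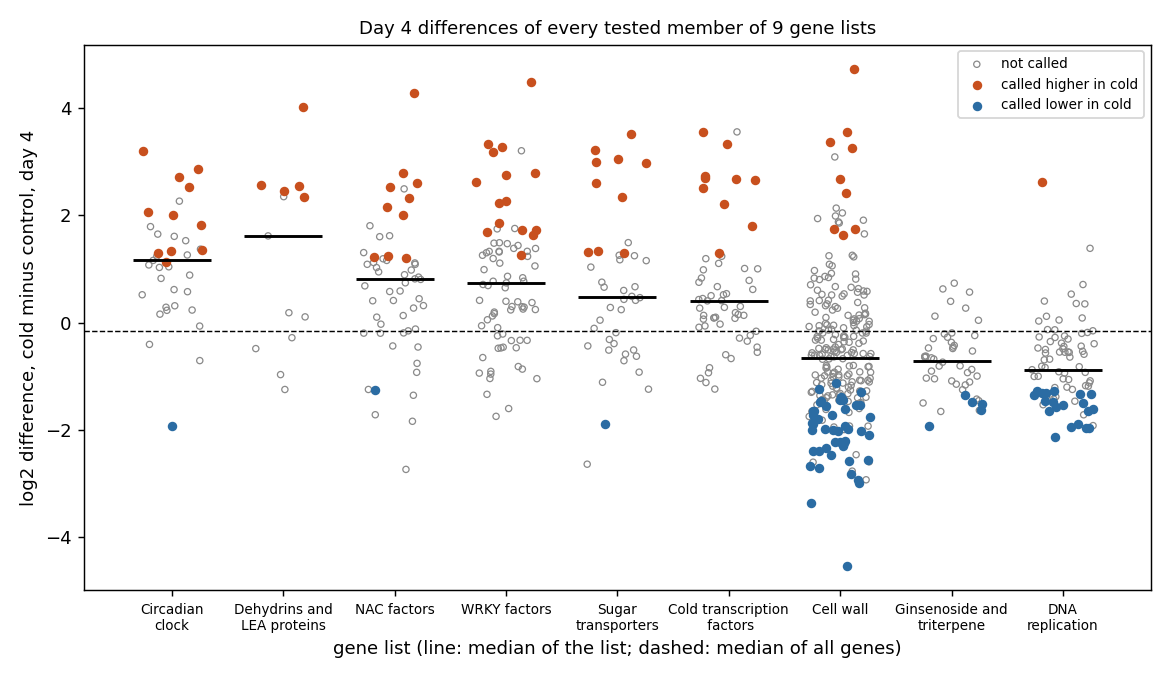
Log2 difference between cold and control at day 4 of every tested member of 9 gene lists, with 1 point for each gene (orange, called higher in cold; blue, called lower; open grey, not called), a line at the median of the list and a dashed line at the median of all genes. Most clock genes lie above the dashed line, and most genes of the DNA replication list and of the ginsenoside and triterpene list below it.

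Ginsenoside and triterpene genes had a negative median, and their calls depended on scaling. Of 48 tested members none rose and 5 fell as deposited (median -0.71, or -0.55 relative to all genes), against 0, 1 and 2 falls under the same-median, median ratio and quantile scalings. Smt1-1, a methyltransferase that acts on cycloartenol in the phytosterol branch, had 7.85 and 18.5 TPM in cold and 51.9 and 46.4 TPM in control (log2 difference -1.93, SE 0.5 by limma, adjusted p = 0.039 after Benjamini-Hochberg). Counted after the values had been seen, 3 of 6 such sterol methyltransferase genes fell, which belong to the phytosterol branch and not to ginsenoside synthesis. A squalene synthase gene (TRINITY_DN12148_c0_g1), whose enzyme makes the triterpene precursor squalene, fell by 1.52. Protopanaxadiol 6-hydroxylase (TRINITY_DN28175_c1_g2), which makes protopanaxatriol in ginseng, was the most abundant member, at 196 and 234 TPM in cold and 446 and 258 TPM in control, and was not called (adjusted p = 0.42 by limma after Benjamini-Hochberg). None of 4 squalene epoxidase genes or 6 dammarenediol and amyrin synthase genes was called. DWF5, a late enzyme of sterol synthesis, had 8.63 and 12.2 TPM in cold and 45.6 and 78.5 TPM in control (log2 difference -2.43, SE 0.45 by limma, adjusted p = 0.014 after Benjamini-Hochberg), and in the KEGG steroid biosynthesis pathway 8 of 75 genes fell and 3 rose.

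Phenylpropanoid and flavonoid genes had 3 of 86 members higher (3.49%) and 4 lower (4.65%), with 2, 2 and 1 lower under the 3 scalings. These shares were near those of all genes, 4.07% and 4.3%. SNL6, a cinnamoyl-CoA reductase-like gene, had 22.1 and 22.2 TPM in cold and 2.55 and 2.14 TPM in control (log2 difference 2.79, SE 0.39 by limma, adjusted p = 0.0073 after Benjamini-Hochberg). HST, which builds hydroxycinnamoyl esters for lignin and chlorogenic acid, had 90 and 124 TPM in cold and 4.36 and 7.84 TPM in control (log2 difference 3.95, SE 0.7 by limma, adjusted p = 0.013 after Benjamini-Hochberg). DIR2, a dirigent protein of lignan coupling, fell by 2.40, which turned to 0.51 over both genes of its hit.

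Hormone genes were called in both directions. Auxin and cytokinin genes had 5 of 189 members higher and 16 lower (median -0.44, or -0.28 relative to all genes), against 7 higher and 9 lower under same-median, 9 and 10 under median ratio and 7 and 10 under quantile scaling. LBD29, an auxin-induced factor of root formation in Arabidopsis and of callus formation, had 4.54 and 1.43 TPM in cold and 39.6 and 56.2 TPM in control (log2 difference -3.71, SE 0.67 by limma, adjusted p = 0.013 after Benjamini-Hochberg). The auxin-induced AUX22D fell by 3.20, whereas SAUR32 rose by 3.69 (1.04 and not called over the 3 genes of its hit). LBD29 lay between -4.31 and -3.12 without 1 day 4 library. Ethylene response genes had 10 of 119 members higher and 3 lower, led by ERF010 at 31.9 and 67 TPM in cold and 2.63 and 1.92 TPM in control (log2 difference 3.86, SE 0.73 by limma, adjusted p = 0.015 after Benjamini-Hochberg). EBF2, an F-box protein that removes the ethylene factor EIN3 in Arabidopsis, had 10.5 and 10.8 TPM in cold and is listed at 0 in both controls, and EBF1 rose by 2.75. Over the 4 genes of its hit EBF2 was not called. Jasmonate genes had none of 34 members higher (1, 2 and 1 under the 3 scalings) and 5 lower, among them JMT, which makes methyl jasmonate (-2.25), and TIFY8 (-1.74).

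Of 409 ribosomal protein genes 3 rose (0.73%) and 15 fell (3.67%), below the shares of all genes, 4.07% and 4.3%. Their median was -0.38 (-0.23 relative to all genes), and 5, 6 and 16 fell under the 3 scalings. RPL5, the most abundant, was at 4570 and 3135 TPM in cold and 6235 and 5043 TPM in control and was not called. Among 185 splicing factor genes none rose (1 under each of the 3 scalings) and 6 fell (median -0.12, turning to 0.02 and 0.03 under same-median and median ratio scaling), with ESP3, a DEAH helicase, at 3.36 and 3.63 TPM in cold and 23.1 and 21.5 TPM in control (log2 difference -2.37, SE 0.43 by limma, adjusted p = 0.014 after Benjamini-Hochberg). The fall of ESP3 was not called over the 3 genes of its hit (-0.66). The share of splicing factor genes that fell, 3.24%, was also below that of all genes. RNA chaperones had none of 27 members higher and 1 lower (3.7%, near the 4.3% of all genes). Heat shock proteins and chaperones had 9 of 227 members higher and 16 lower as deposited, a balance that depended on scaling, with 15 higher and 13 lower under same-median, 14 and 13 under median ratio and 12 and 15 under quantile scaling. ATJ20, a plastid J-protein, rose by 3.24, and HSP83A fell by 2.24.

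Detoxification and defence genes were mixed. Antioxidant enzymes had 2 of 68 members higher (2.94%) and 4 lower (5.88%), near the shares of all genes, 4.07% and 4.3%. Under the 3 scalings 0, 0 and 4 were lower. MDAR5, which recycles ascorbate, fell in both of its called genes (-2.13 and -1.85). Glutathione S-transferases had 2 of 23 members higher and none lower, and the most abundant, GSTU8, was at 1750 and 1792 TPM in cold and 477.7 and 620 TPM in control and missed the threshold (adjusted p = 0.058 by limma after Benjamini-Hochberg). Pathogenesis-related genes had 8 of 77 members higher and 3 lower. CHIT1B, a basic chitinase, had 134 and 43.4 TPM in cold and 8 and 3.52 TPM in control (log2 difference 3.60, SE 0.92 by limma, adjusted p = 0.038 after Benjamini-Hochberg). With 1 day 4 library left out, the difference of CHIT1B lay between 2.80 and 4.40. PR-4B, the most abundant of them, was at 2195 and 2395 TPM in cold and 510.2 and 227 TPM in control and missed the threshold (adjusted p = 0.061 by limma after Benjamini-Hochberg). Class III peroxidases had 1 of 25 higher and 1 lower (4% each, near the shares of all genes). Of the 13 proline genes none was called by limma as deposited, and 1 was under each of the 3 scalings.

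In the table's own annotation, 14 of 119 KEGG pathways and 220 of 890 GO terms with at least 20 tested genes had a median above 0, and 43 and 421 had one above the median of all genes. After circadian rhythm, the highest KEGG pathway was regulation of autophagy (median 0.18), with 9 of 103 genes higher and 4 lower, where PUB19, a ubiquitin ligase, rose by 2.76 (between 2.08 and 3.45 without 1 day 4 library) and 2.10. Genes named for autophagy-related proteins, which form the vesicles that carry cell contents to the vacuole, were counted after the values had been seen, and 16 of 61 rose and none fell. ATG18C, a lipid-binding member, had 656 and 878 TPM in cold and 207 and 179 TPM in control (log2 difference 1.97, SE 0.34 by limma, adjusted p = 0.012 after Benjamini-Hochberg), and ATG9 (TRINITY_DN35893_c3_g1), a membrane protein of the forming vesicle, rose by 2.69. The other high pathways by median were stilbenoid, limonene, sesquiterpenoid, zeatin, phenylalanine and isoquinoline alkaloid pathways (0.09 to 0.17), in which genes of broad enzyme families were called in both directions. Cytochrome P450 CYP82D47 (TRINITY_DN24503_c0_g1), of a family of plant oxidases, had 178 and 158 TPM in cold and 28.1 and 32.9 TPM in control (log2 difference 2.43, SE 0.26 by limma, adjusted p = 0.0031 after Benjamini-Hochberg).

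The lowest KEGG pathway by median was tetracycline biosynthesis (-0.64), 20 genes that in this table are mostly subunits of plastid acetyl-CoA carboxylase, the entry enzyme of fatty acid synthesis, and none of them was called. DNA replication (-0.57) had 20 of 140 genes lower and 1 higher. The ganglio series of glycosphingolipid biosynthesis had 10 of 53 lower and none higher, led by beta-galactosidase genes Os03g0165400 (-2.52, or -1.48 and not called over both genes of its hit) and BGAL3 (-2.34). Folate biosynthesis had 6 of 39 lower and 1 higher, and DAAT, a transaminase of the plastid, had 7.18 and 10.4 TPM in cold and 79.9 and 89.8 TPM in control (log2 difference -3.15, SE 0.51 by limma, adjusted p = 0.0100 after Benjamini-Hochberg). The globo series of glycosphingolipids had 3 of 28 lower (10.7%), brassinosteroid biosynthesis 1 of 31 lower and 1 higher (3.23% each), and vitamin B6 metabolism 1 of 35 lower (2.86%) and 4 higher (11.4%). Over all genes 4.3% were called lower and 4.07% higher, so the falls in brassinosteroid biosynthesis and vitamin B6 metabolism did not exceed that share. PRA1F2 (-1.47) and HAT14 (-2.15), the called falls of the last pair of pathways, turned to 0.16 and 0.23 over the genes of their hits.

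GO terms repeated the replication genes under several names. The lowest were THO complex (median -1.24, 10 of 22 genes lower), DNA replication initiation (-1.20, 13 of 33 lower and 1 higher), nucleolar ribonuclease P complex (-1.10, 8 of 26 lower) and DNA unwinding (-1.09, 13 of 31 lower). The THO complex term, named for an mRNA export complex, holds MCM genes in this table, and MCM3 and ROA2 were its largest falls. Xyloglucan metabolism (-1.04) had 7 of 32 lower, with a xyloglucan endotransglucosylase 2 gene (TRINITY_DN14013_c0_g2) at 6.95 and 8.76 TPM in cold and 73.1 and 60 TPM in control (log2 difference -2.93, SE 0.62 by limma, adjusted p = 0.021 after Benjamini-Hochberg). Polar nucleus fusion (-0.94) had 3 of 22 lower, with BIP5, a chaperone of the endoplasmic reticulum, at -1.99.

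At the other end of the GO terms stood the elongin complex (median 0.92, 6 of 24 genes higher and 1 lower), in which MED26B, a Mediator subunit, rose, with 15.6 and 10.2 TPM in cold and 3.89 and 3.74 TPM in control, but was not called over the 3 genes of its hit (0.68). Response to chitin had 18 of 106 higher and 5 lower (median 0.75), led by WRKY40 and ZAT10, already described. Negative regulation of ethylene signalling had 6 of 30 higher and none lower (0.78), and positive regulation of proteasomal catabolism 8 of 41 higher and none lower (0.74), with the 2 COP1 genes of largest rise at its head. ABC transporters of the xenobiotic-transporting term had 2 of 36 higher (0.81), both with the best hit ABCC3 (1.89 and 1.58). The acyltransferases of diacylglycerol had 2 of 20 higher (0.79), WSD1, which makes wax esters, by 2.12 and At1g54570 by 2.10.

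**Figure D4:**
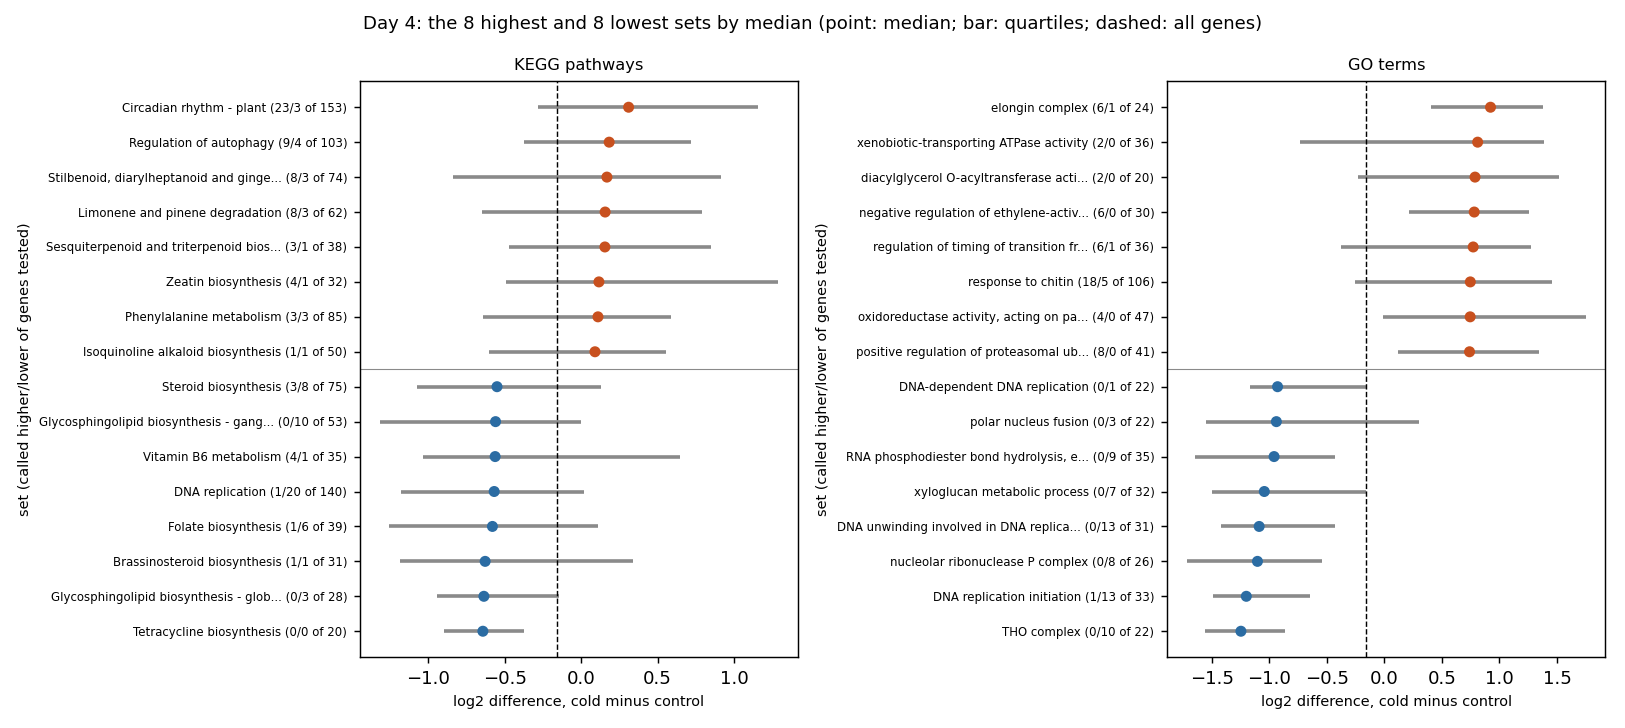
Median (point) and quartiles (bar) of the day 4 log2 difference for the 8 highest and 8 lowest KEGG pathways (left) and GO terms (right) with at least 20 tested genes, with the number of genes called higher and lower in cold beside each name and a dashed line at the median of all genes. Circadian rhythm is the highest KEGG pathway, and 3 of the 4 lowest GO terms hold MCM genes.

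Calls were more frequent among abundant and among long genes. Of genes with a mean of at least 50 TPM over the day 4 libraries 13.1% were called, 294 higher and 132 lower, against 10.7% from 5 to 49 TPM and 3.79% under 5 TPM. Genes of at least 1000 bases were called in 10.2%, and genes under 300 bases in 4.82%. Of genes with an informative protein name 9.21% were called, and of genes without annotation 6.83%. The log2(TPM + 1) scale understates the change of low genes, and the share of genes at 0 was 7.46% and 7.01% in cold and 6.34% and 4.94% in control. Just inside the rule of sides was TMN11, at 79.56 and 70.43 TPM in cold and 70.42 and 64.03 TPM in control. CAD1 lay just outside it, at 25.6 and 25 TPM in cold and 22.3 and 25 TPM in control.

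Day 4 had more calls than the other days. Cold and control differed in 786 genes at day 2 (1.76%) and in 216 at day 6 (0.484%), each tested in its own 4 libraries with the same spread. Pearson's r within cold and within control was 0.832 and 0.81 at day 2 and 0.899 and 0.848 at day 6. At day 4 it was 0.925 and 0.88. Cold replicate 3 of day 6 had an r of 0.806 to 0.861 with the control libraries, against 0.75 to 0.805 for cold replicate 2. The part of these differences between libraries in the counts was not tested. Of the 3736 genes called at day 4, 3380 (90.5%) had the same sign at day 2 and 3336 (89.3%) at day 6. Of the day 4 calls, 352 (9.42%) were also called with the same sign at day 2, which is 44.8% of the day 2 calls, and 128 (3.43%) at day 6, which is 59.3% of the day 6 calls. A test of whether the day 4 difference departed from the mean of days 2 and 6 called no gene by limma, with the variance trend or without it, and 3535 genes (7.93%) had an unadjusted p under 0.05 with the trend and 3589 without it. Its lowest adjusted p was 0.10 (limma, Benjamini-Hochberg). Against day 2 alone 3 genes were called, and 0 without the variance trend (3927 at an unadjusted p under 0.05). Against day 6 alone none was called with or without it, with 3626 genes at an unadjusted p under 0.05 with the trend. No gene can therefore be called particular to day 4 by the first of these tests.

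The 20 genes with the largest changes at day 4 kept their sign on the other days. At day 2 the methyltransferase gene DDB_G0268948 had a difference of 0.29, and at day 6 of 3.91, against 6.61 at day 4. MARD1 had -2.68 and -2.43 at days 2 and 6, against -5.49 at day 4. The gene guaA stood at -0.05 and -0.95, against -3.79. Being largest at day 4 follows from the choice of these genes. The KEGG circadian rhythm pathway had positive medians on each day (0.28, 0.31 and 0.30 at days 2, 4 and 6), and the KEGG DNA replication pathway negative ones (-0.28, -0.57 and -0.44). In the narrower list of clock genes the medians were 0.39, 1.16 and 0.42, and in the list of DNA replication genes -0.59, -0.88 and -0.58.

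**Figure D5:**
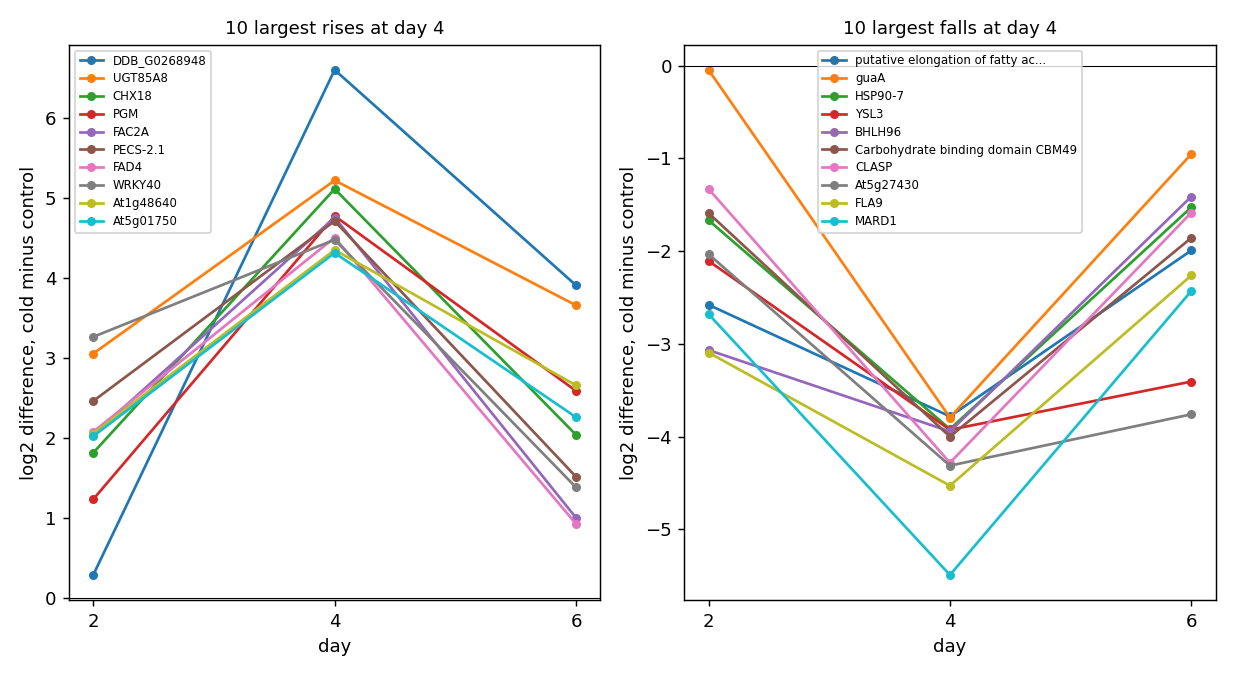
Log2 difference between cold and control at days 2, 4 and 6 for the 10 largest rises (left) and the 10 largest falls (right) of day 4, with 1 line for each gene. All 20 genes have the same sign on the 3 days, and they were chosen for their size at day 4.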

How the data were processed

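The deposited table holds TPM values, which the authors made for genes of a transcriptome assembly. The submitters' processing notes name cutadapt, FastQC, Salmon and edgeR, with roles, versions and assembler not given in the sources used here. That the deposited values are TPM was read from Salmon's place among these tools and from the table's columns, which sum to 900400 to 928722 in the day 4 libraries. The lowest gene maximum was 6.01 TPM, so genes with low values had been dropped before deposit. How reads were divided among near-identical copies, which an allotetraploid holds, is not given, so genes sharing a Swiss-Prot hit are uncertain singly.

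Genes that reached 1 TPM in 2 or more libraries were tested on log2(TPM + 1) with limma 3.58.1 (R 4.3.3, variance trend), all 12 libraries in 6 groups of 2, Benjamini-Hochberg at a false discovery rate of 0.05 over 44600 genes. Called means past that threshold, and a difference is cold minus control. The other days were tested in the same fit, and the day 4 difference against the mean of days 2 and 6. Levels of single libraries are given in replicate order. The 34 gene lists match words in the protein names. KEGG and GO sets are those of the table. Gene names come from the table.

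Named genes were the 10 largest rises and falls, the 2 largest in each direction and the most abundant gene of each list, and the 2 largest of the 8 highest and 8 lowest KEGG and GO sets by median. They had to be called, on 1 side of both controls, named, and at a mean of at least 5 TPM in the higher group, except the most abundant genes. Other genes given with values were chosen after their values were seen. The members and lists were chosen with earlier results of these data known. No set was tested. Alternatives covered pseudocount, filter, libraries in the fit, replicate block, scaling, variance trend, summing by Swiss-Prot hit and leaving out each library.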

Additional observations from a re-analysis of the deposited data

Results flagged for a closer look

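Among the named genes, 12 differed between cold and control at day 4 in 1 direction and, without overlap of the libraries, in the other direction on another day. The difference between the days was tested with limma for each of these 13 pairs of days, and none was called, with adjusted p from 0.0505 to 0.455 after Benjamini-Hochberg over all genes. All 13 had an unadjusted p under 0.05, which the choice of these genes by opposite sides on the days builds in. At day 6, the calcium pump ACA13 had a log2 difference of -1.03 (3.43 at day 4), the GINS subunit SLD5 (TRINITY_DN17658_c0_g2) of -0.83 (2.63 at day 4) and MYB4 of -1.02 (2.14 at day 4). The chitinase CHIT1B had -1.37 at day 6 and 3.60 at day 4, and the flavonoid glucosyltransferase GT3 had -2.11 at day 6 and 4.01 at day 4. ABCC3 (TRINITY_DN31583_c0_g1) had -0.80 at day 6 and 1.58 at day 4, and GALT29A, an arabinogalactan galactosyltransferase, had 0.82 at day 6 and -2.13 at day 4.

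At day 2, a histone H1 gene (TRINITY_DN17781_c0_g1) had -0.70 (151 and 187 TPM in cold and 68.3 and 50.4 TPM in control at day 4), the MYB factor PP2 -0.63 (3.69 at day 4), the ribosomal protein gene RPL24 0.34 (-1.77 at day 4) and the cytochrome P450 CYP82D47 (TRINITY_DN24503_c0_g1) -0.52 (2.43 at day 4). The cytochrome P450 CYP71D312 (TRINITY_DN33832_c0_g1) was lower in cold on both other days, by -0.90 at day 2 and -1.90 at day 6, and higher at day 4 (2.76).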

How the results depend on the processing

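Calls depended on the libraries in the fit. Fitted to the 4 day 4 libraries alone, 535 genes were higher and 319 lower in cold, with a lowest adjusted p of 0.0489 (limma, Benjamini-Hochberg). With 1 library left out at a time, higher calls ranged from 10 to 2016 and lower calls from 2 to 2159, and genes with both cold values above the controls ranged from 11572 to 15753 and below them from 16047 to 20848. The low ends came without a day 4 library, while leaving out a library of another day gave 3367 to 4175 calls. The labels do not say whether replicate numbers pair the samples. Deviations of same-numbered day 4 libraries correlated at 0.0074 across genes (-0.188 at day 2 and -0.0122 at day 6). With 2 libraries in each group, each day gives only 1 such correlation, which cannot decide whether same-numbered samples shared a culture. With the replicate number as a block, 1131 genes were higher and 1073 lower with 12 libraries. In day 4 libraries alone the block gave 0 higher and 0 lower by limma, with 12652 genes at an unadjusted p under 0.05. The cause of these moves was not tested. Pseudocount, filter, scaling, the variance trend and summing by hit kept each count within 1.5 times. Of the 146 called named genes, 126 to 130 stayed called under the 3 scalings, 98 without the trend and 105 with summed hits. Summing turned the sign of both MYB44 genes (0.18), DIR2 (0.51), At1g54730 (0.0551), PRA1F2 (0.16) and HAT14 (0.23). The fold of 21 named genes moved by more than 1.5 times without 1 day 4 library, and TPM gives no depth by which to judge low values.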

Other observations

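Stress genes outside the lists were among those called without 1 or more of the day 4 libraries, and they were picked after their values were seen. HSFB3, a heat stress transcription factor, had 362 and 342 TPM in cold and 35.3 and 25.2 TPM in control (TRINITY_DN21463_c1_g2, log2 difference 3.52, SE 0.37 by limma, adjusted p = 0.0031 after Benjamini-Hochberg). RD21A, for a vacuolar cysteine protease, rose in its genes among these, and TRINITY_DN16072_c0_g1 stood at 131 and 134 TPM in cold and 11.8 and 8.13 TPM in control. The sodium/proton exchangers NHX1 and NHX2 rose by 3.99 and 3.44. Gibberellin genes were also among them, with the receptor GID1B at 97.4 and 127 TPM in cold and 3.47 and 6.31 TPM in control, and GA2OX8, which inactivates gibberellin, at 59.3 and 90.2 TPM in cold and 7.93 and 5.62 TPM in control. A gene without a protein name (TRINITY_DN20833_c1_g3) was at 617 and 807 TPM in cold and 6.15 and 12.1 TPM in control, and was called in all 4 fits that left out a day 4 library.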
